A study of Mus musculus with 6 samples.

Results

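Glutathione, peroxiredoxin and thioredoxin genes were examined in whole mouse testis from animals labelled as lacking 2 transporters and from wildtype animals. A gene was a member if its symbol began with Gst and a letter, Gpx and a digit, Prdx and a digit, or Txn, if it was Sod1, Sod2 or Sod3, or if it was Cat, Gclc, Gclm, Gss, Gsr, Nfe2l2, Keap1 or Nqo1, with Gpx4 left out. This rule found 66 of the 24411 genes in the deposited tables. The libraries came from RNA of frozen testes of C57BL/6 mice, an inbred laboratory strain, matched for age. A group of 3 libraries carries the genotype label MRP5-/- and MRP9-/- (labelled DKO), and the other group of 3 carries the label Wildtype (labelled WT). MRP5 and MRP9 are ATP-driven membrane transporters encoded by Abcc5 and Abcc12. The labels do not say that replicates came from separate animals, so p-values measure only the spread between these libraries, and they give neither the ages, nor how the alleles were built, nor a preparation batch.

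Glutathione is the main small thiol of the cell. Glutathione transferases attach it to reactive compounds, glutathione peroxidases use it to reduce peroxides, and several transporters of the MRP family export the conjugates. Peroxiredoxins and thioredoxins form a parallel thiol relay that draws its electrons from NADPH through thioredoxin reductases, and superoxide dismutases and catalase act on superoxide and hydrogen peroxide. The transcription factor NRF2, encoded by Nfe2l2 and held back by KEAP1, induces many of these genes. In testis the system includes germ-cell forms, among them the spermatid thioredoxins Txndc2 and Txndc8 and the thioredoxin-glutathione reductase Txnrd3, beside the somatic forms of Leydig and Sertoli cells.

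The libraries labelled DKO held 42673615 to 67131103 expected counts and those labelled WT 26753721 to 31745969, and their mean fragment lengths were 275.5 to 317.4 and 230.4 to 257.9 bases, so neither quantity overlapped between the groups. Abcc12 stood at 25.5 to 27.4 TPM (a transcript level scaled to the library and corrected for transcript length) in libraries labelled DKO against 55.7 to 58.4 TPM in those labelled WT. Abcc5 was higher in libraries labelled DKO, at 4.48 to 4.84 against 3.28 to 3.96 TPM. Since the build of the alleles is not given, transcript levels cannot check the label for Abcc5. The groups are named by their labels throughout. The tissue carried the defining markers of testis, with summed levels of 102350 to 120346 TPM for 7 genes of elongating spermatids and 864 to 3146 TPM for 8 genes of Leydig cells, which make testosterone outside the seminiferous tubules. Of the 7 epididymis markers, 6 stayed under 1 TPM in every library, and 2 of them, Lcn5 included, were listed at 0.

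Of the 8 Leydig markers, 3 were called lower (Star, Hsd3b6 and Insl3, with log2 fold changes of -0.79, -1.09 and -1.12). In all, 7 had a value below 0 and 1, Hsd3b1, had a value above 0 (0.21). Their summed level was 1230, 1521 and 864 TPM in libraries labelled DKO and 1499, 3146 and 1969 TPM in those labelled WT. Insl3 made up most of this sum in every library, at 877, 1193 and 582 TPM against 1215, 2576 and 1503 TPM. Its counts were partly fractional in all 6 libraries, and it overlaps Jak3 in the RefSeq table. WT replicate 2 held the highest sum by a wide margin, while WT replicate 1 lay between the libraries labelled DKO. Sertoli markers summed to 1130, 1123 and 1316 TPM against 1241, 1629 and 1397 TPM, with 3 of 10 called lower (Rhox5, Cldn11 and Trf). Clu, which was not called, made up most of the Sertoli sum in every library. Among the remaining lists, 1 of 5 peritubular myoid genes was called lower (Tagln), 2 of 7 spermatocyte genes were called higher (Sycp3 and Hormad1), and 1 of 7 elongating spermatid genes was called higher (Akap4). Beside all these lists, 5.10% of all tested genes were called lower and 5.75% higher. None of the 9 macrophage, 5 endothelial, 7 spermatogonia, 6 round spermatid or 4 adipocyte markers was called, nor was any of the 2 erythroid genes and 1 epididymis gene that could be tested. The part of these cell types in the results below was not tested. In bulk tissue, fewer cells of a type and less RNA per cell cannot be told apart.

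Levels differed widely between members. Gstm5, a mu class transferase, had by far the highest level of the members, at 3883 ± 331 TPM in libraries labelled DKO and 3862 ± 44.1 TPM in those labelled WT (SD, n = 3 each). Txndc2 followed at 894 ± 104 and 810 ± 8.63 TPM, and Sod1, the cytosolic copper-zinc dismutase, at 660 ± 54.3 and 826 ± 59.5 TPM. Gstt4, Txnrd3, Txndc8, Gstm1 and Prdx6b came next, with mean levels over the 6 libraries of 532, 366, 354, 348 and 307 TPM. The NRF2 target Nqo1 stood near the bottom of the tested members, at 1.81 to 3.65 TPM. All members together summed to 9431 ± 302 TPM in libraries labelled DKO and 9783 ± 430 TPM in those labelled WT (SD, n = 3 each), and the ranges overlapped.

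**Figure D1:**
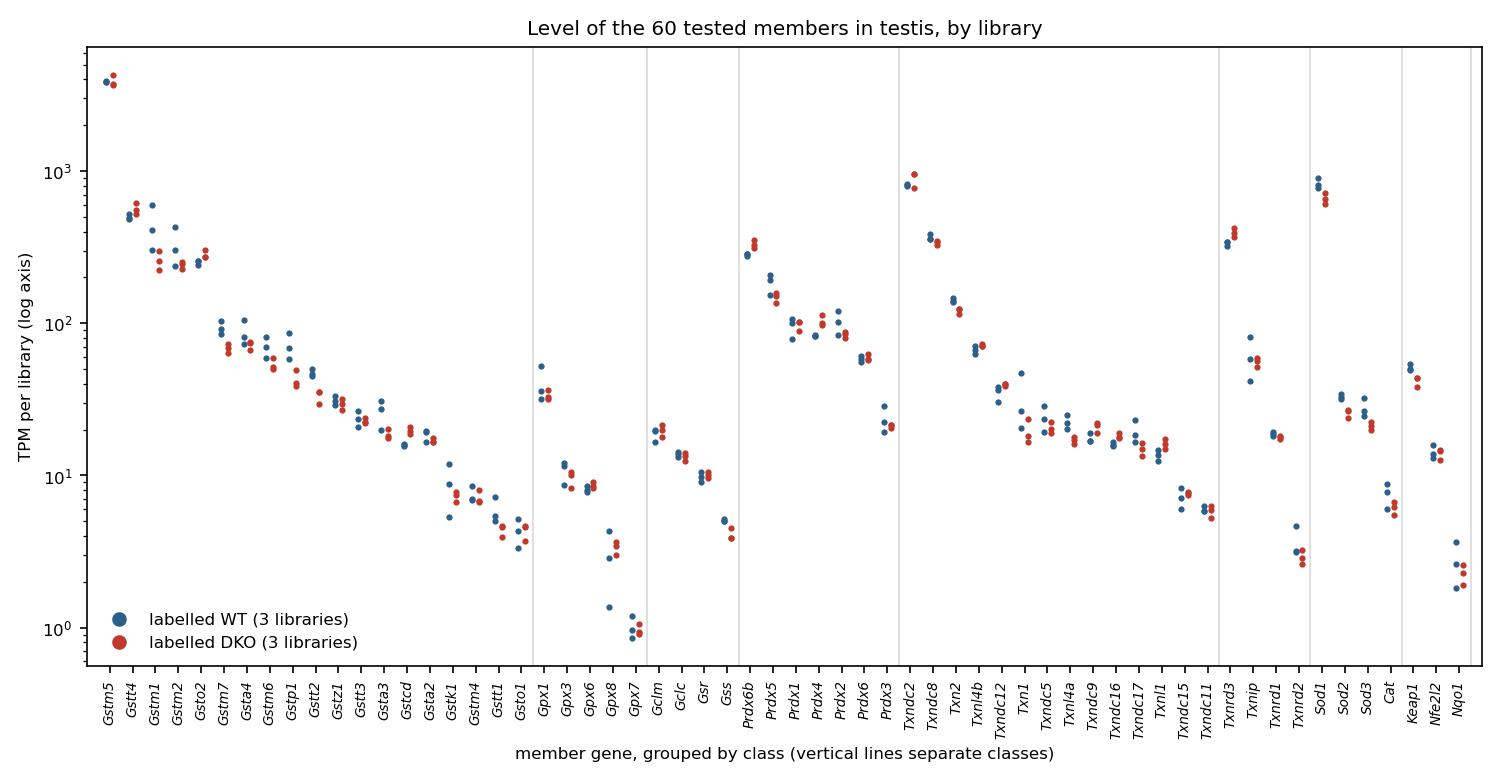
Level of each tested member in TPM on a log axis, with 1 point per library, labelled WT in blue and labelled DKO in red, and members grouped by class. Gstm5 lies between 3678 and 4265 TPM in all 6 libraries, and the Sod1 points labelled WT lie above those labelled DKO.

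The groups were compared to ask which of these genes differ with the labelled loss of both transporters. Of the 66 members, 60 passed the filter on low counts and were tested. Of these, 13 (21.7%) were called at an adjusted p under 0.05 over all 17110 tested genes, where 10.8% of genes were called. The calls leaned to lower levels. In libraries labelled DKO 10 members (16.7%) fell, against 5.10% of all tested genes, and 3 rose, where 5.75% of all tested genes did. The median log2 fold change over the tested members was -0.08, and that over all tested genes was -0.0042. Values per library (CPM, counts scaled to library size with TMM factors) did not overlap between the groups for 28 members (46.7%), against 35.9% of all tested genes.

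Members have short transcripts, with a median of 1482 bases against 2623 bases over all tested genes, and short transcripts were called lower more often in these libraries. Among tested genes under 1000 bases 15.7% were called lower, and of the 11 members in that range 3 were. Between 1000 and 2000 bases 6.61% of genes and 5 of 29 members were called lower, and from 2000 bases upward 2.81% of genes and 2 of 20 members. The number of calls moved with single libraries. It was 18 members without DKO replicate 3, 19 without WT replicate 1 and 5 without DKO replicate 2. Over all tested genes, 3029 of 17089, 2037 of 17447 and 655 of 17116 were called in these fits. Without DKO replicate 1, WT replicate 2 or WT replicate 3 no member was called, and only 11, 13 and 7 genes were called in all. In these edgeR fits 23 of 60, 22 of 61 and 28 of 61 members had an unadjusted p under 0.05. Among all tested genes this held for 3571 of 17097, 3793 of 17403 and 4326 of 17431.

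**Figure D2:**
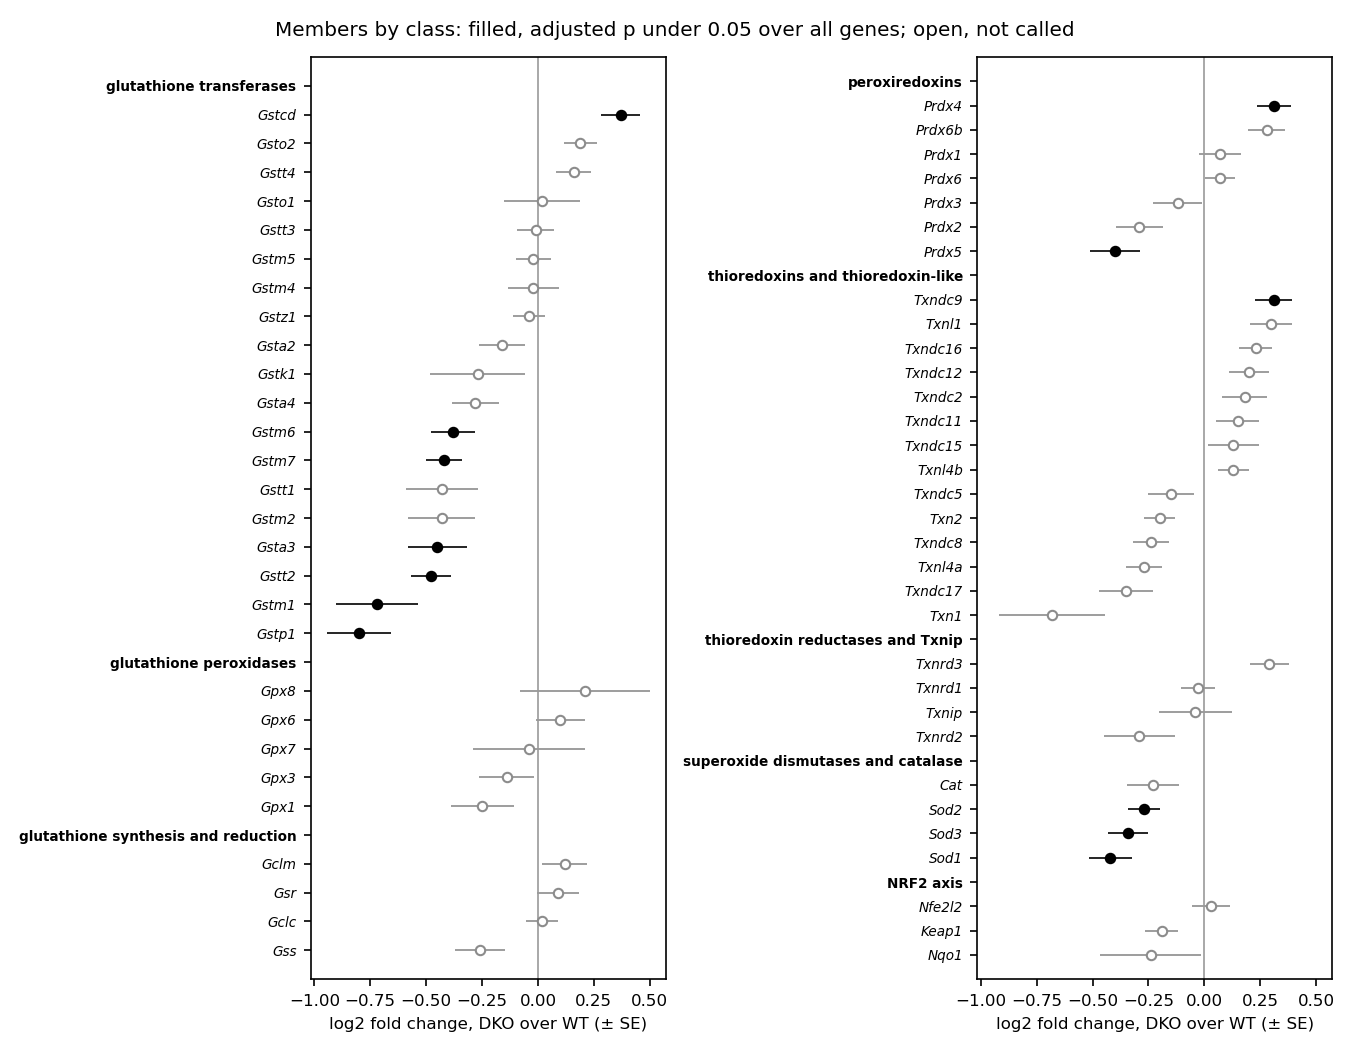
Log2 fold change of each of the 60 tested members with its standard error, DKO over WT by label, by class. Filled points are called over all genes, and 10 of these 13 lie below 0, of which 6 are glutathione transferases and 3 superoxide dismutases.

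The glutathione transferases, the largest class, held the largest number of calls among the classes. Of 19 tested members 6 fell (31.6%, against 5.10% of all tested genes) and 1 rose (5.26%, against 5.75%). The median log2 fold change was -0.27, and 15 of the 19 had a value below 0. Their median transcript length was 1161 bases, and between 1000 and 2000 bases 6.61% of all tested genes were called lower. The genes that fell came from the pi, mu, theta and alpha classes, which conjugate electrophiles in the cytosol. Gstp1, the pi class enzyme, had 11.8, 16.3 and 12.8 CPM in libraries labelled DKO and 19.8, 28.0 and 22.9 CPM in those labelled WT. All libraries labelled DKO lay below all labelled WT, and the gene fell by 42.5% (log2 fold change -0.80, SE 0.143, adjusted p = 0.0237). Its fragments carried fractional counts in all 6 libraries, as did those of its near copy Gstp2 (at most 0.910 TPM), so reads of the pair were divided by estimate and its level is uncertain to that extent.

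The mu class genes lie side by side on chromosome 3 (RefSeq positions on GRCm38.p6), from Gstm5 at chr3:107895854-107898685 to Gstm4 at chr3:108030571-108045179, and 3 of the 6 tested were called lower. Gstm1 had 156, 218 and 176 CPM in libraries labelled DKO against 217, 398 and 288 CPM in those labelled WT, a fall of 39.1% (log2 fold change -0.72, SE 0.184, adjusted p = 0.0373). The groups overlapped, since WT replicate 1 lay just below DKO replicate 2. Without WT replicate 2, the library with the highest Leydig sum and the shortest mean fragment length, its log2 fold change was -0.47 (adjusted p = 0.118). Gstm7 stood at 45.3, 50.7 and 50.6 CPM against 61.5, 70.0 and 64.3 CPM, with no overlap and little spread within a group (log2 fold change -0.42, SE 0.0787, adjusted p = 0.0246). Gstm6, its neighbour, had 30.8, 31.3 and 34.9 CPM against 36.7, 47.3 and 42.4 CPM (log2 fold change -0.38, SE 0.0974, adjusted p = 0.0372). Gstm6 was called in 8 of the 12 alternatives that kept all libraries, with log2 fold changes of -0.39 to -0.06. Among the 6 fits that left out 1 library it was called in 2. Gstm2 had a log2 fold change of -0.43 without passing the test (adjusted p = 0.0780), and single wildtype libraries moved it. It was -0.21 without WT replicate 2 (adjusted p = 0.251), was called at -0.61 without WT replicate 1 (adjusted p = 0.0250), and was 0.13 with fragment length as a covariate. Gstm5, at 1574, 1664 and 1823 CPM against 1754, 1639 and 1735 CPM, had a log2 fold change of -0.02 (SE 0.0777), a sign that flipped to 0.05 with an offset from the effective lengths (and it overlaps 4933431E20Rik), and Gstm4 had -0.02 (SE 0.112). Differences between these neighbours were not tested.

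Gstt2, a theta class enzyme, gave 22.1, 27.6 and 26.1 CPM in libraries labelled DKO and 34.9, 36.0 and 34.8 CPM in those labelled WT. The groups did not overlap and the wildtype libraries were nearly level (log2 fold change -0.48, SE 0.0894, adjusted p = 0.0243). The other theta class genes lie beside it on chromosome 10 and none passed the test. Gstt1 had 2.35, 2.14 and 2.40 CPM against 2.73, 3.67 and 2.84 CPM, with no overlap and a log2 fold change close to that of Gstt2 (-0.43, SE 0.161, adjusted p = 0.0965; -0.28 without WT replicate 2). Gstt3 and Gstt4 had values of -0.01 (SE 0.0839) and 0.16 (SE 0.0777). Gsta3, an alpha class enzyme, had 13.6, 16.3 and 13.7 CPM against 15.7, 22.6 and 21.1 CPM, so WT replicate 1 lay within the range of the libraries labelled DKO. Its call was the closest to the threshold (log2 fold change -0.45, SE 0.131, adjusted p = 0.0495), and it was not called with the effective-length offset (adjusted p = 0.0547). It overlaps Gm28836 in the RefSeq table. Gstcd, named for a transferase-like domain, was the transferase-named gene that rose, from 26.1, 23.6 and 25.5 CPM in libraries labelled WT to 32.5, 35.1 and 29.7 CPM (log2 fold change 0.37, SE 0.0860, adjusted p = 0.0325). It was called in 9 of the 12 alternatives that kept all libraries, with log2 fold changes of 0.23 to 0.38, and in 2 of the 6 that left out a library. It overlaps Ints12 in the RefSeq table, and without known strand handling reads of the pair cannot be told apart.

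**Figure D3:**
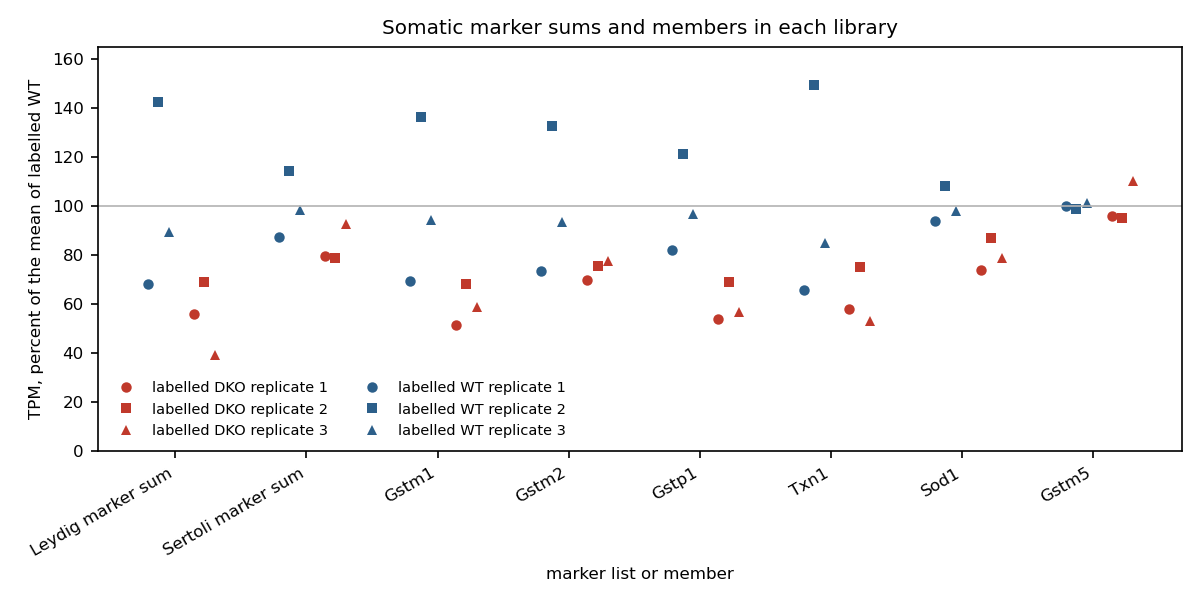
TPM as a percent of the mean of the libraries labelled WT, for the summed Leydig and Sertoli markers and 6 members, with 1 symbol per library. In every library Insl3 makes up most of the Leydig sum and Clu most of the Sertoli sum, so each sum mainly shows 1 gene. WT replicate 2 (blue square) is highest for both sums and for Gstm1, Gstm2, Gstp1, Txn1 and Sod1, whereas it is the lowest wildtype library for Gstm5. The same library has the shortest mean fragment length (230.4 bases), and the part of either in these levels was not tested.

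All 3 superoxide dismutases were called lower, where 5.10% of all tested genes were. None of the 3 overlapped between the groups, and 35.9% of all tested genes did not overlap either. Sod1 had 146, 189 and 163 CPM in libraries labelled DKO and 212, 236 and 218 CPM in those labelled WT, a fall of 25.3% (log2 fold change -0.42, SE 0.0945, adjusted p = 0.0301). Its transcript has 648 bases, and with the effective-length offset its log2 fold change was -0.28 (adjusted p = 0.0554). It was -0.17 with the trends on length and GC content removed (adjusted p = 0.183) and -0.15 with fragment length as a covariate (adjusted p = 0.999). Sod2, the manganese enzyme of the mitochondrial matrix, had 60.2, 67.9 and 64.5 CPM against 78.2, 77.2 and 77.7 CPM, a fall of 17.4% (log2 fold change -0.27, SE 0.0703, adjusted p = 0.0372). Its transcript is long, at 3824 bases, and its log2 fold change was -0.29 with the effective-length offset (adjusted p = 0.0367). Sod3, the secreted enzyme, had 24.6, 26.9 and 26.6 CPM against 30.2, 36.8 and 31.7 CPM (log2 fold change -0.34, SE 0.0892, adjusted p = 0.0396). It was called in 8 of the 12 alternatives that kept all libraries, with log2 fold changes of -0.38 to -0.08. It was not called with the trends on length and GC content removed, with the covariate or on either TPM scale. Among the 6 fits that left out 1 library it was called in 2. Cat, the peroxisomal catalase, had a log2 fold change of -0.23 (SE 0.116) and overlapping groups (adjusted p = 0.193), and was -0.36 without WT replicate 1 and -0.15 without WT replicate 2. The summed level of these 4 genes was 661, 771 and 706 TPM in libraries labelled DKO and 839, 968 and 876 TPM in those labelled WT. Sod1 alone made up 610, 718 and 650 TPM against 777, 893 and 810 TPM of it, so the sum mainly shows Sod1.

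**Figure D4:**
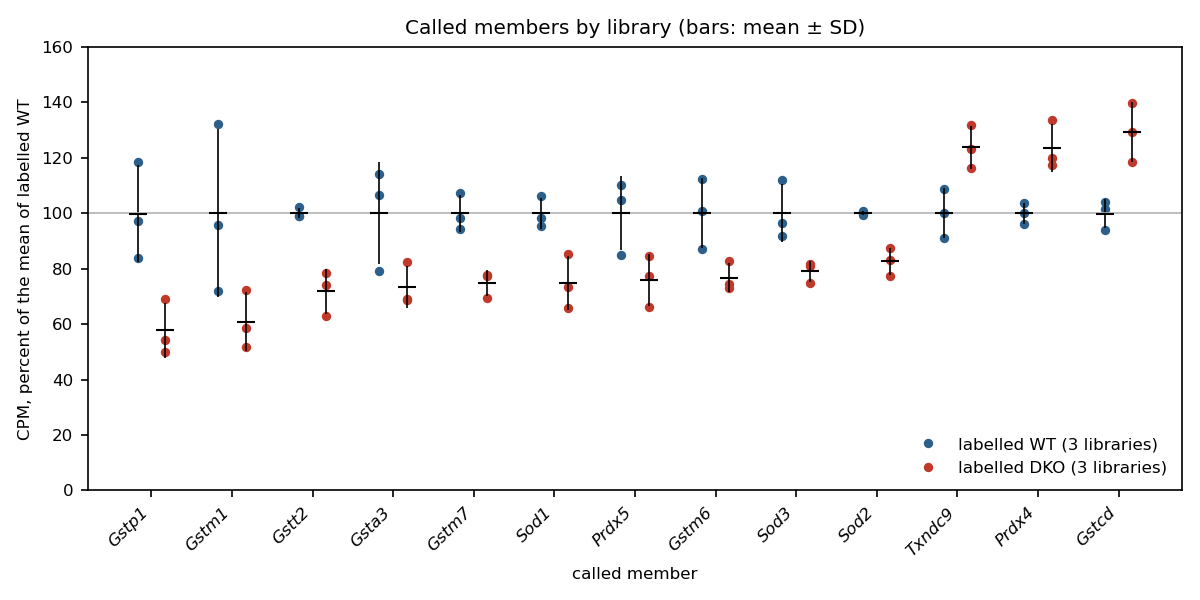
The 13 called members as CPM relative to the mean of the libraries labelled WT, with 1 point per library and bars for the mean and SD (n = 3 each). Gstm1 and Gsta3 overlap between the groups, and the other 11 do not.

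Peroxiredoxins moved in both directions, with 1 of 7 called higher and 1 lower (14.3% each, against 5.75% and 5.10% of all tested genes). Prdx4, which acts in the secretory pathway, rose from 41.8, 38.7 and 40.4 CPM in libraries labelled WT to 47.3, 48.4 and 53.8 CPM in those labelled DKO (log2 fold change 0.31, SE 0.0761, adjusted p = 0.0358). It has a short transcript of 975 bases, and its log2 fold change was 0.37 with the effective-length offset (adjusted p = 0.0279) and 0.39 with the fragment length of each library as a covariate, where it did not pass the test (adjusted p = 0.999). After thinning all libraries to the smallest total it was not called. Prdx5, found in mitochondria and peroxisomes, had 36.0, 46.1 and 42.0 CPM against 46.2, 59.9 and 57.1 CPM, groups that nearly touched (log2 fold change -0.40, SE 0.111, adjusted p = 0.0454). Its transcript has 688 bases, and its log2 fold change was -0.27 with the effective-length offset (adjusted p = 0.0916) and -0.05 with the trends on length and GC content removed (adjusted p = 0.768). It also overlaps Trmt112 in the RefSeq table. Prdx6b, the most abundant peroxiredoxin, lay at 650, 615 and 551 CPM against 525, 462 and 506 CPM, with no overlap and a value next to the threshold (log2 fold change 0.28, SE 0.0830, adjusted p = 0.0504). It was called with DESeq2 size factors (adjusted p = 0.0485), but its log2 fold change was 0.04 with the trends on length and GC content removed (adjusted p = 0.788) and about 0 with the covariate. The cytosolic Prdx1 and Prdx2 had values of 0.07 and -0.29, the mitochondrial Prdx3 had -0.12, and Prdx6 had 0.07, none past the test.

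Thioredoxins and proteins with a thioredoxin fold gave 1 call among 14 tested members (7.14%, against 10.8% of all tested genes). The groups did not overlap for 10 of the 14 (71.4%, against 35.9% of all tested genes). Txndc9, a phosducin-like protein, rose from 51.0, 46.3 and 55.4 CPM in libraries labelled WT to 67.1, 59.3 and 62.7 CPM (log2 fold change 0.31, SE 0.0836, adjusted p = 0.0410). It was called in 8 of the 12 alternatives that kept all libraries and in 1 of the 6 that left out a library, and its value was 0.15 with the trends on length and GC content removed (adjusted p = 0.220) and 0.13 with the covariate. Txn1, the cytosolic thioredoxin, had the largest value in the class, with 9.56, 13.1 and 8.67 CPM against 11.3, 24.2 and 14.3 CPM. Its groups overlapped and its difference did not pass the test (log2 fold change -0.68, SE 0.237, adjusted p = 0.0767). It moved to -0.31 without WT replicate 2 and was called without WT replicate 1. Txn2, the mitochondrial thioredoxin, had 79.1, 89.7 and 84.2 CPM against 97.2, 96.9 and 95.8 CPM, again without passing (log2 fold change -0.20, adjusted p = 0.0845).

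Neither spermatid thioredoxin was called in the edgeR fit over all libraries. Txndc2, a protein of the sperm tail, had 1078, 1109 and 843 CPM in libraries labelled DKO against 931, 841 and 892 CPM (log2 fold change 0.18, SE 0.101, adjusted p = 0.232). It was called without DKO replicate 3 (0.30, adjusted p = 0.0311), and was 0.10 without DKO replicate 2 and -0.13 with the covariate. Txndc8 had 71.2, 83.8 and 78.6 CPM against 97.9, 88.3 and 89.9 CPM (log2 fold change -0.24, SE 0.0799, adjusted p = 0.0683), and it was called with DESeq2 (adjusted p = 0.0350) while its value was -0.08 with the effective-length offset. Of the members with a role elsewhere, Txnl4a, a spliceosome protein, lay next to the threshold at -0.27 (adjusted p = 0.0502), and Txnl1, which associates with the proteasome, at 0.30 (adjusted p = 0.0568).

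Of the thioredoxin reductases, Txnrd3 had the highest level, with 764, 721 and 639 CPM in libraries labelled DKO and 612, 531 and 592 CPM in those labelled WT. The groups did not overlap, and the difference fell just short of the threshold (log2 fold change 0.29, SE 0.0868, adjusted p = 0.0518). The cytosolic Txnrd1 and the mitochondrial Txnrd2 had values of -0.03 (SE 0.0763) and -0.29 (SE 0.158). Txnip, which binds and inhibits thioredoxin, had 105, 103 and 87.6 CPM against 73.5, 131 and 98.7 CPM, a wide spread among the wildtype libraries (log2 fold change -0.04, SE 0.162; 0.19 without WT replicate 2), and its counts were partly fractional in all 6 libraries.

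The supply of glutathione and its peroxidases gave no call. Gclc and Gclm, the catalytic and modifier subunits of the rate-limiting step of glutathione synthesis, had log2 fold changes of 0.02 (SE 0.0715) and 0.12 (SE 0.0997), with the sign of Gclc changing to -0.01 after thinning and both signs negative once the trends on length and GC content were removed. Gss, the next enzyme, had 4.56, 4.70 and 5.14 CPM against 5.96, 5.61 and 5.78 CPM, with no overlap but without passing the test (log2 fold change -0.26, SE 0.111, adjusted p = 0.128). Gsr, which regenerates glutathione from its oxidized form, had 0.09 (SE 0.0932). None of the 5 tested peroxidases was called and none had separate groups. Gpx1, the cytosolic enzyme and the most abundant of them, had 16.5, 18.2 and 18.9 CPM in libraries labelled DKO and 17.3, 27.0 and 19.3 CPM in those labelled WT, with a log2 fold change of -0.25 (SE 0.141, adjusted p = 0.245). It was -0.04 without WT replicate 2 and -0.39 without WT replicate 1. Gpx3, the secreted enzyme, had -0.14 (SE 0.124), a value that ranged from -0.27 without WT replicate 1 to -0.08 without WT replicate 2.

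The 6 members under the count filter were Gpx2, the pseudogene Gpx2-ps1, the epididymal Gpx5, Gsta1, Gstm3 and Gstp2. Each had at most 16 counts in any library, and Gpx2 had a single count over all 6 libraries.

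Neither NRF2, its inhibitor nor Nqo1 was called. Nfe2l2 had 22.3, 20.2 and 21.9 CPM in libraries labelled DKO and 21.2, 22.3 and 19.4 CPM in those labelled WT (log2 fold change 0.03, SE 0.0860, a sign that changed to -0.04 with the trends on length and GC content removed). Keap1, its inhibitor, had 85.2, 98.3 and 93.7 CPM against 108, 107 and 102 CPM, with no overlap but without passing the test (log2 fold change -0.19, SE 0.0740, adjusted p = 0.106; 0.01 with those trends removed). With limma on log2(TPM + 1) and log2(TPM + 0.1) the value of Keap1 was -0.28 and -0.29 (adjusted p = 0.0622 and 0.0596). Nqo1, a classical target, had 2.28, 2.11 and 1.63 CPM against 1.63, 3.04 and 2.29 CPM (log2 fold change -0.24, SE 0.227). Its value rested on WT replicate 2, without which its log2 fold change was about 0, and it was -0.44 without WT replicate 1 and -0.09 without DKO replicate 3.

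NRF2 binds the antioxidant response element, and the core TGACNNNGC was searched on both strands of the RefSeq promoter windows (GRCm38.p6, from 250 bases before to 50 bases after each start). Windows existed for 56 members, of which 11 (19.6%) held the core, against 14.0% of all 27025 genes with a window. Among the called members it was found for Gsta3, Gstm7 and Sod1, all of which fell, out of 11 with a window. These are shown with 3 uncalled members, Gclm, Prdx1 and Txnrd1, known as NRF2 targets, to set the cores of genes that fell beside those of genes that were not called. Capitals mark the core, which appears as its reverse complement where it lies on the strand opposite to the gene, and each line runs 5′ to 3′ along the gene.
Gstm7, minus strand, chr3:107931695-107931783: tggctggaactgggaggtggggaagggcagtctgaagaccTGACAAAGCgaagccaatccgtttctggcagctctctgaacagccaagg
Gsta3, plus strand, chr1:21240424-21240512: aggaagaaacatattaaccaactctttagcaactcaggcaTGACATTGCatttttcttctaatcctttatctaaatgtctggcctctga
Sod1, plus strand, chr16:90220666-90220754: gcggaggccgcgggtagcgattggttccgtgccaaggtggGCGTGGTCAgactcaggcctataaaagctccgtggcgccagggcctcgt
Gclm, plus strand, chr3:122245383-122245471: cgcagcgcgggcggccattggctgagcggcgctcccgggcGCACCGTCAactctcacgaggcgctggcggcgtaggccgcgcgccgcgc
Prdx1, plus strand, chr4:116685426-116685514: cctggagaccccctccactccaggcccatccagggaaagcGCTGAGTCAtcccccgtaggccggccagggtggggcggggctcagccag
Txnrd1, plus strand, chr10:82859074-82859162: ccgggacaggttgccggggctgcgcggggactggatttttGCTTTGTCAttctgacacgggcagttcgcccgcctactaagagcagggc

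The core begins 129 bases before the start used for the window of Gstm7, 121 before that of Gsta3 and 56 before that of Sod1. The stretches of Gstm7 and Txnrd1 lie inside the RefSeq spans of these genes (chr3:107926334-107931877 and chr10:82833951-82897724). The starts used for these windows are therefore not the outermost starts of the genes. A match of these letters is a description and shows no binding. The abundant Gstm5 also held it, and so did the Nfe2l2 window.

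Other genes of the same chemistry were taken from a list of 61 glutathione, thioredoxin, NADPH, selenoprotein and NRF2-linked genes outside the rule. Of these, 58 were tested and 8 were called (13.8%, against 10.8% of all genes), 4 lower and 4 higher, with a median log2 fold change of -0.03. Those lower were Msrb1, a methionine sulfoxide reductase (-0.76, adjusted p = 0.0272), Mgst3, a membrane-bound transferase (-0.75, adjusted p = 0.0301), Slc3a2, the heavy chain of the cystine transporter (-0.37, adjusted p = 0.0358), and Selenom, listed under its older symbol Selm (-0.59, adjusted p = 0.0387). Those higher were Chac2, which degrades glutathione (0.62, adjusted p = 0.0301), Tmx3, a thioredoxin-fold protein of the endoplasmic reticulum (0.55, adjusted p = 0.0301), Cul3, the ubiquitin ligase scaffold that works with KEAP1 (0.45, adjusted p = 0.0362), and Nnt, which makes NADPH in mitochondria (0.29, adjusted p = 0.0450). Mgst3 had 2.38, 3.50 and 3.97 CPM in libraries labelled DKO and 5.65, 5.67 and 5.46 CPM in those labelled WT. The transcripts of Msrb1, Mgst3 and Selenom are short, at 886, 635 and 872 bases, and that of Slc3a2 has 2643 bases. Among all tested genes under 1000 bases 15.7% were called lower. None of the 8 called genes kept its call with the trends on length and GC content removed. Ccs, the copper chaperone of Sod1, had -0.33 and was not called (adjusted p = 0.0563).

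The deposited gene length is an average over transcripts weighted by their estimated abundance, so it can show a different mix of transcripts. Of 14 tested members with several transcripts, 4 differed in length by at least 1% with no overlap between the groups. The share over all genes with several transcripts was not computed, so this count has no background beside it. Library totals and fragment lengths did not overlap between the groups either, and their part in these lengths was not tested. Txndc11 had 2549 ± 14.9 bases in libraries labelled DKO and 2359 ± 130 in those labelled WT, Txnl4a 2225 ± 18.5 and 2127 ± 36.9, Keap1 3435 ± 41.6 and 3357 ± 12.1, and Txnrd1 3363 ± 7.80 and 3403 ± 15.1 (SD, n = 3 each). With the effective lengths taken into account, Txnl4a was called lower (log2 fold change -0.35, adjusted p = 0.0355) and the value of Txndc11 went from 0.15 to 0.01. Members linked to a targeted gene were also examined. Prdx2, 1.53 Mb from Abcc12, had -0.29 (adjusted p = 0.0802), and Txnrd2, 1.85 Mb from Abcc5, had -0.29 (adjusted p = 0.230). Without WT replicate 2 these were -0.19 and -0.12.

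**Figure D5:**
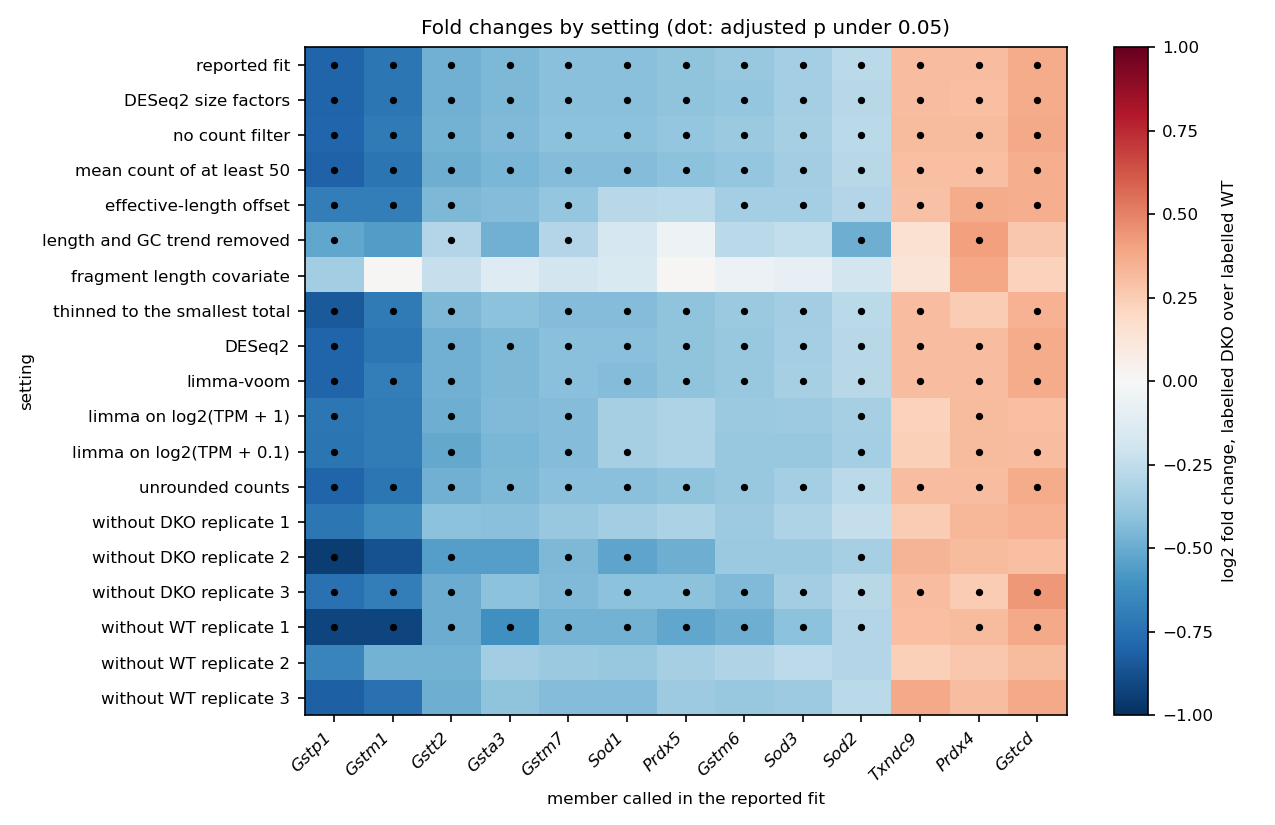
Log2 fold change (colour, red higher and blue lower in libraries labelled DKO) of the 13 called members under the reported fit and each alternative, with a dot where the adjusted p was under 0.05. Gstp1, Gstt2, Gstm7 and Sod2 carry a dot in 11 of the 12 alternatives that kept all libraries, and no member carries one once fragment length entered as a covariate.

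The calls of Gstp1, Gstt2, Gstm7 and Sod2 were kept most often. Each was called in 11 of 12 alternatives that kept all libraries, with log2 fold changes of -0.84 to -0.35 for Gstp1, -0.51 to -0.23 for Gstt2, -0.43 to -0.18 for Gstm7 and -0.49 to -0.18 for Sod2. The exception was the fit with fragment length as a covariate, which called 1 gene in all, and each was called in 3 of the 6 fits that left out 1 library. Gstm1 was called in 7 of the 12 and Gsta3 in 5, and the value of Gstm1 was 0.01 with the covariate.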

How the data were processed

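Expected counts and TPM per gene were deposited by the authors as RSEM output, 1 table per library without pooling, per the file headers. STAR 2.7.0f, RSEM 1.2.31, DESeq2 1.12.3 and mm10 are named in the submitters' processing notes, and strand handling and annotation are not given in the sources used here. The tables deposited by the authors also hold FPKM, which entered no result. Of the expected counts, 93.2% were whole, and all were rounded. Genes passing filterByExpr (edgeR 4.0.16) were TMM-scaled and tested by the edgeR quasi-likelihood test with genotype as the only term over 6 libraries. P-values were adjusted by Benjamini-Hochberg over all 17110 tested genes, and a call means an adjusted p under 0.05. The SE is the absolute log2 fold change over the square root of F. The script was tested on simulated data. Replicate numbers follow deposition order and pair nothing. Mean fragment length came from length minus effective length in genes over 3000 bases. Members, lists and named genes (called members, the 2 most abundant of each class, the 5 largest changes each way; others for their role or nearness to a threshold) were chosen with earlier results of these data known. Alternatives used DESeq2 1.42.0, limma 3.58.1 (log2(TPM + 1) and log2(TPM + 0.1)) and mgcv 1.9.3. Symbols were matched to RefSeq on GRCm38.p6. The 12 marker lists stand for Leydig, Sertoli, macrophage, myoid, endothelial, erythroid, epididymis, adipocyte and 4 germ-cell stages.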

Additional observations from a re-analysis of the deposited data

How the results depend on the processing

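Genes called over all genes numbered 1856. They were 553 with the length and GC trends removed, 1 with the fragment length covariate, 2923 with DESeq2, 735 on log2(TPM + 1) and 947 on log2(TPM + 0.1), and 7 to 3029 without 1 library. Higher calls made up 53.0% of all calls, against 64.9% with the trends removed and 38.0% and 39.1% on the TPM scales. Members called higher (3) were 6 without the count filter, 5 at a mean count of 50 and after thinning, 7 with DESeq2, 1 with the trends removed and on log2(TPM + 1), 0 with the covariate, and 0 to 8 without 1 library. Members called lower (10) were 4 with the trends removed and on log2(TPM + 1), 6 on log2(TPM + 0.1), 0 with the covariate, and 0 to 15 without 1 library. The median log2 fold change over all tested members (-0.08) was -0.0006 with the covariate and -0.21 to -0.04 without 1 library. Pathway genes called higher (4) were 0 with the trends removed or the covariate, 7 with DESeq2, and 1 and 2 on the TPM scales. Those called lower (4) were 0 with the trends removed or the covariate, 8 with DESeq2 and 1 on log2(TPM + 1). Without 1 library they were 0 to 5 higher and 0 to 10 lower.

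Signs changed for the following members chosen by the naming rule. With the covariate, values were -0.02 for Gclc, -0.08 for Gclm, 0.26 for Gpx1, 0.01 for Gstm1, 0.09 for Gstm5, 0.01 for Prdx5, -0.13 for Txndc2, 0.22 for Txnip and -0.02 for Txnrd3. With the trends removed they were -0.04 for Gclc, -0.08 for Gclm, 0.01 for Gpx1, 0.05 for Gpx3, 0.10 for Gstm5, 0.01 for Keap1 and -0.04 for Nfe2l2. Gstm5 was 0.05 with the effective-length offset. After thinning, Gclc and Nfe2l2 were each -0.01. On both TPM scales Gclc was -0.04, Gstm5 0.0046 and Nfe2l2 -0.02. Without 1 library, Gclc ranged from -0.01 to 0.03, Gstm5 from -0.08 to 0.02, Nfe2l2 from -0.02 to 0.07 and Txnip from -0.24 to 0.19. Other members given in the text also changed sign. With the covariate these were Gstm2 (0.13), Gstm4 (0.22), Gstt3 (0.18), Prdx2 (0.05), Prdx3 (0.08), Txnrd2 (0.02) and Gsr (-0.07), and with the trends removed Gstm4 (0.08), Gstt3 (0.08), Prdx1 (-0.09) and Txn2 (0.01). Txndc11 was -0.03 and -0.04 on the TPM scales. Without WT replicate 2, Gstm4 and Gstt3 were each 0.05 and Prdx3 0.01, Prdx1 was -0.04 without WT replicate 1, and Txnrd1 was 0.01 without DKO replicate 3. The cause of these shifts was not tested. The covariate does not overlap between the groups and leaves fewer degrees of freedom. Gstt4 (0.16) was 0.10 without DKO replicate 3, and Txndc11 (0.15) was 0.08 without DKO replicate 1. Of 504 comparisons of 28 named members with an alternative, 365 kept direction and side of the threshold, 89 lost the call, 19 gained it and 31 changed sign. Only the 13 members called in the reported fit could lose a call, and the 365 also include comparisons of members not called there. Depth limits the 6 members with at most 16 counts.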
